A study of Mus musculus with 6 samples.

Results

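Ribosome biogenesis was examined through 45 genes of RNA polymerase I and of the nucleolar machinery that turns its transcript into ribosomal subunits. The genes were taken by name, from a list of factors with known roles in this pathway, out of the 52636 genes with a row in the expression table. RNA polymerase I transcribes the ribosomal RNA (rRNA) repeats in the nucleolus, with Ubtf on the repeats and Rrn3 bringing the polymerase to the promoter. The long precursor is then modified by small nucleolar ribonucleoproteins (snoRNPs), cut, and folded with ribosomal proteins into a 40S and a 60S subunit by large sets of assembly factors. The pathway is driven by growth signals, among them mTORC1 and Myc, and dividing myeloid precursors use it heavily, while neutrophils that have left the cell cycle make few new ribosomes.

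RNA of primary bone marrow neutrophils was sequenced in 6 libraries from C57BL/6N mice aged 10 weeks, 3 labelled WT and 3 labelled LRP5-KO, whose genotype label gives floxed Lrp5 alleles together with Lyz2Cre. Lyz2-Cre deletes in granulocytes, monocytes and macrophages alike, and the labels do not say whether the WT mice carried it. Nothing in the labels says that the libraries of a group came from separate animals, so p-values measure only the spread between these samples. The study asked what loss of LRP5, which it describes as a carrier of polyunsaturated fatty acids, does to neutrophils, and examined signalling through mTORC1, a driver of this pathway.

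The libraries held 249841492 to 340580330 reads. The labelled cell type was matched by its markers, whose 12 genes summed to between 398400 and 447300 TPM in every library. Here TPM is the length-corrected share of transcripts scaled to a fixed library total. S100a8 and S100a9 held most of this sum, with means of 127196 and 214290 TPM. Ly6g was at 920 to 1104 TPM, and the lowest mean of the 12 genes was 693 TPM, for Itgam. Lrp5 itself stood at 1.12, 1.31 and 1.42 TPM in the libraries labelled WT and at 1.68, 1.77 and 2.07 TPM in those labelled LRP5-KO. Its transcript did not go down with the label. A deletion of single exons need not lower a gene's TPM, so this value does not check the genotype, and every direction below is that of the labelled libraries. WT replicate 3 stood apart from WT replicates 1 and 2. Across genes, the deviation of a library from the mean followed the GC content of transcripts with a Spearman correlation of 0.33 to 0.44 in the LRP5-KO libraries and 0.37 in WT replicate 3, but of −0.61 in WT replicate 1 and −0.43 in WT replicate 2. These correlations describe the libraries, and genes are not independent replicates.

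Of the 45 genes, 35 averaged 1 TPM or more across the 6 libraries and were tested, and the other 10 fell below this level. Of the 35 genes, 0 passed the test between LRP5-KO and WT at an adjusted p under 0.05 (limma on log2(TPM + 1), Benjamini-Hochberg adjustment over all 9775 genes tested), beside 0.532% of all genes tested. The count was also 0 in limma without a mean-variance trend. The median log2 fold change of the 35 genes was 0.065, beside 0.040 for all genes tested, and the single values lay between −0.39 for Nop58 and 0.44 for Imp3. All are differences of log2(TPM + 1), which understates changes of genes at low TPM. As a ratio of mean TPM, LRP5-KO over WT, Nop58 was at 0.632 and Imp3 at 1.44. The log2 fold change was above 0 for 23 genes and below 0 for 12, so that 65.7% were higher in LRP5-KO, beside 58.8% of all genes tested. At an unadjusted p under 0.05 there were 6 genes, 5 of them higher and 1 lower, or 17.1%, which is a smaller share than the 23.5% of all genes tested. In 6 genes every LRP5-KO library was above every WT library, or 17.1% beside a background of 17.4%. In 3 genes every LRP5-KO library was below every WT library, or 8.57% beside a background of 12.3%, and in the remaining 26 the groups overlapped. These shares were near or under the background, and they give no result about the 35 genes as a set. The 95% intervals, not adjusted for the number of genes, had a median half-width of 0.23 on the log2 scale and a largest half-width of 0.42. Differences smaller than these could not be resolved for most genes. Larger ones could still fail the adjusted test, as Imp3 did at 0.44 (limma adjusted p = 0.0675).

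**Figure D1:**
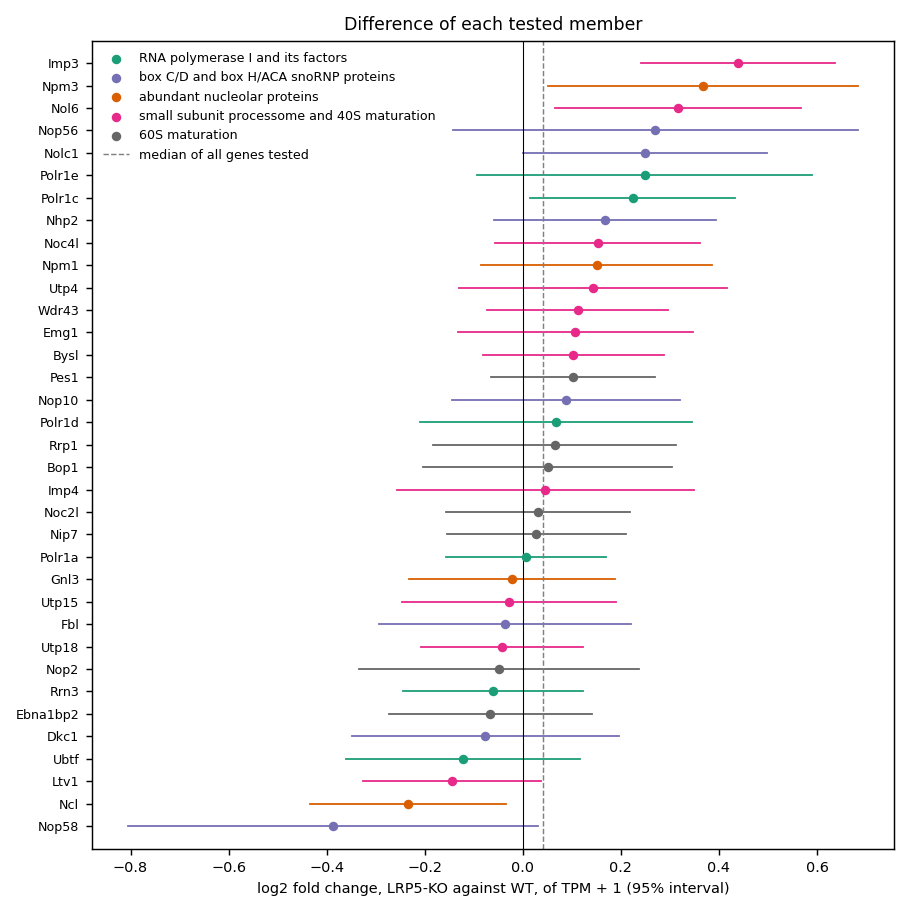
The horizontal axis gives the log2 fold change of TPM + 1, LRP5-KO against WT, with its 95% interval from limma for each of the 35 genes tested, coloured by role. Imp3 lies furthest to the right at 0.44 and Nop58 furthest to the left at −0.39, and most intervals cross both 0 and the dashed median of all genes at 0.04.

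Most of the machinery was expressed at a low level in these cells. The median level was 4.50 TPM for the 35 genes, beside 11.8 TPM for all genes tested, and 8 genes reached 10 TPM, 9 lay from 5 to 10 TPM and 18 lay under 5 TPM. The 6 genes of highest level were Polr1d, Polr1a, Ubtf, Emg1, Rrp1 and Npm1, which come from 4 of the 5 role groups. TPM takes out gene length, so these levels can be set beside each other roughly. It does not take out the GC trends of the libraries or reads shared between genes.

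**Figure D2:**
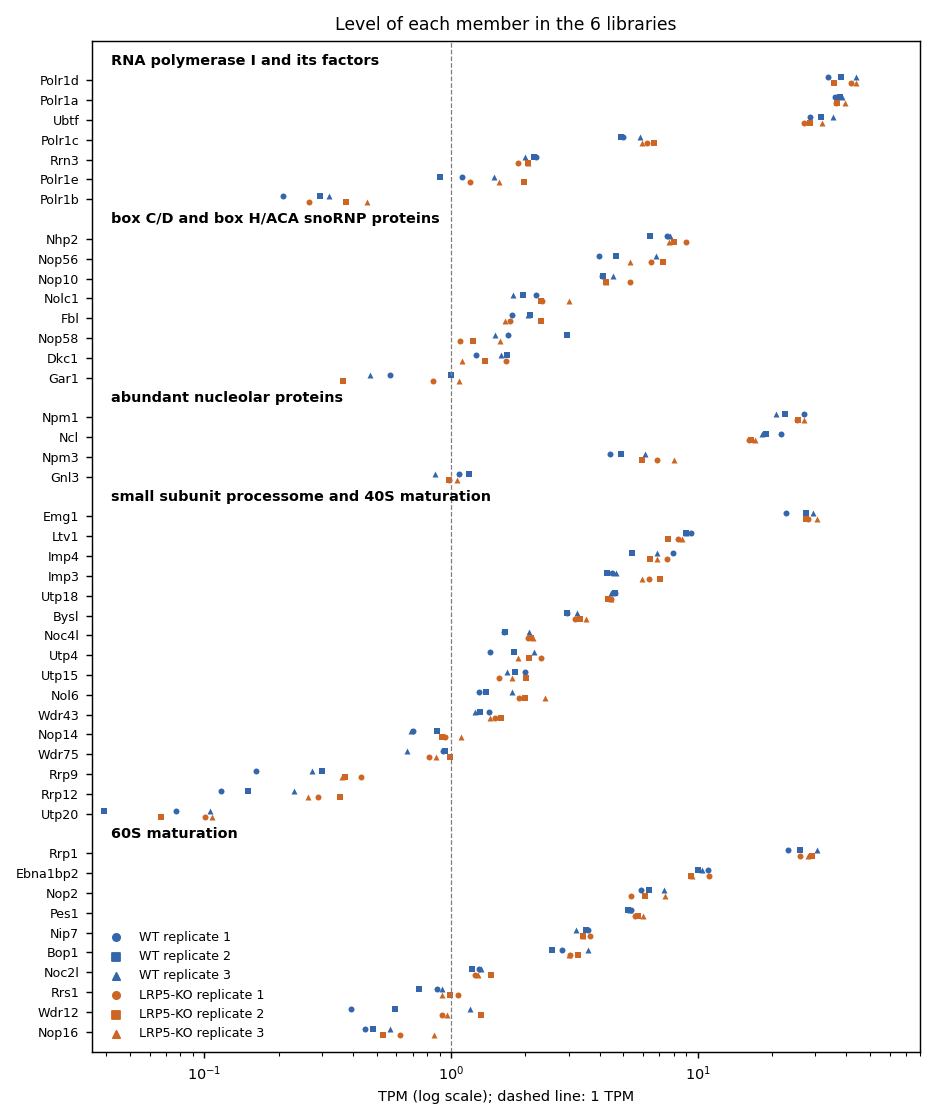
Each point is the TPM of a gene in 1 library on a log axis, with WT in blue and LRP5-KO in orange and the 45 genes ordered by level within their role. Polr1d, Polr1a and Ubtf stand between 27.0 and 44.0 TPM while Polr1b stays under 1 TPM in every library, and blue and orange points overlap for most genes.

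RNA polymerase I and its factors were described by 7 genes. Of the 6 tested, Polr1a, Polr1c, Polr1d and Polr1e had a log2 fold change above 0 and Rrn3 and Ubtf one below 0, with a median of 0.04, and none passed the test. Polr1a, the largest subunit and part of the catalytic centre, was at 36.2, 37.9 and 38.3 TPM in WT and at 36.3, 36.9 and 39.7 TPM in LRP5-KO. The libraries of both groups lay in the same range, and its log2 fold change of 0.0060 (95% interval −0.16 to 0.17) was the smallest in size of all 35. Polr1b encodes the other subunit of the catalytic centre. Its level was 0.21, 0.30 and 0.32 TPM in WT and 0.26, 0.38 and 0.46 TPM in LRP5-KO, overlapping and below the level for testing. The partners of the catalytic centre thus had transcript levels whose ratio, Polr1a to Polr1b, was 136 in WT and 103 in LRP5-KO. The low values of Polr1b make this ratio uncertain.

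Polr1c and Polr1d encode subunits that RNA polymerase I shares with RNA polymerase III. Polr1c (chromosome 17, 46380869 to 46385003, minus strand, NCBIM37) was at 4.996, 4.90 and 5.83 TPM in WT and at 6.21, 6.66 and 5.96 TPM in LRP5-KO. The lowest LRP5-KO library was just above the highest WT library, and the log2 fold change was 0.22 (standard error, SE, 0.089, limma adjusted p = 0.193). Polr1d was at 33.8, 38.1 and 44.0 TPM in WT and at 41.9, 35.6 and 43.9 TPM in LRP5-KO, which overlapped fully, with a log2 fold change of 0.07 (95% interval −0.21 to 0.34). Polr1e, a subunit specific to RNA polymerase I that takes part in initiation and elongation, was at 1.11, 0.90 and 1.499 TPM in WT and at 1.19, 1.99 and 1.57 TPM in LRP5-KO. Its groups overlapped and its log2 fold change was 0.25 (adjusted p = 0.337 from limma), the largest in this role.

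Both initiation factors had log2 fold changes slightly below 0. Rrn3, the factor through which growth signals reach the polymerase, was at 2.20, 2.17 and 1.99 TPM in WT and at 1.87, 2.04 and 2.05 TPM in LRP5-KO. Ubtf, the architectural factor of active rRNA repeats, was at 28.5, 31.8 and 35.3 TPM in WT and at 27.0, 28.4 and 32.0 TPM in LRP5-KO. The groups overlapped in both genes, with log2 fold changes of −0.06 (95% interval −0.24 to 0.12) for Rrn3 and −0.12 (95% interval −0.36 to 0.12) for Ubtf.

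The snoRNP proteins guide and carry out chemical modification of the rRNA precursor. Of 8 genes 7 were tested, 4 with a log2 fold change above 0 (Nolc1, Nop56, Nhp2 and Nop10) and 3 below 0 (Nop58, Dkc1 and Fbl), with a median of 0.09, and none passed the test. In the box C/D particle, which methylates the ribose, the scaffold proteins Nop56 and Nop58 had log2 fold changes of opposite sign. Nop56 was at 3.97, 4.68 and 6.79 TPM in WT and at 6.44, 7.24 and 5.30 TPM in LRP5-KO, with WT replicate 3 inside the range of LRP5-KO and a log2 fold change of 0.27 (adjusted p = 0.385 from limma). The direction of Nop56 rests on WT replicates 1 and 2, since against WT replicate 3 alone its log2 fold change was −0.098. Nop58 was at 1.70, 2.95 and 1.51 TPM in WT and at 1.08, 1.22 and 1.58 TPM in LRP5-KO. Its high value in WT replicate 2 stood out and the groups overlapped, with a log2 fold change of −0.39 (SE 0.18, limma adjusted p = 0.239). Fbl, the methyltransferase of the particle, had a log2 fold change of −0.04.

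In the box H/ACA particle, which turns uridine into pseudouridine, the enzyme Dkc1 had a log2 fold change of −0.08, its partner Nop10 one of 0.09, and Gar1 was below the level for testing. Nhp2, the RNA-binding core protein, was at 7.49, 6.38 and 7.73 TPM in WT and at 8.93, 8.02 and 7.65 TPM in LRP5-KO, and the groups overlapped. Nolc1, a nucleolar phosphoprotein that chaperones snoRNPs, was at 2.21, 1.96 and 1.79 TPM in WT and at 2.34, 2.32 and 3.02 TPM in LRP5-KO. Its LRP5-KO libraries were all above the WT libraries, by a narrow margin for replicates 1 and 2, and the log2 fold change was 0.25 (SE 0.11, limma adjusted p = 0.211).

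The abundant nucleolar proteins were split, with Npm3 and Npm1 above 0 and Ncl and Gnl3 below 0. Ncl encodes nucleolin, an RNA-binding protein of the dense nucleolar regions (chromosome 1, 88241294 to 88256030, minus strand, NCBIM37). It was at 21.9, 19.0 and 18.2 TPM in WT and at 16.2, 16.4 and 17.1 TPM in LRP5-KO. All LRP5-KO libraries were below all WT libraries, and the log2 fold change was −0.23 (SE 0.086, limma adjusted p = 0.170). Npm1 encodes nucleophosmin, a chaperone of the outer nucleolus. It has many processed pseudogenes with which reads can be shared, so its level is less certain. It was at 26.9, 22.7 and 20.8 TPM in WT and at 25.4, 25.6 and 27.1 TPM in LRP5-KO, with WT replicate 1 inside the range of LRP5-KO and a log2 fold change of 0.15 (adjusted p = 0.394 from limma). Npm3, a relative of nucleophosmin, was at 4.42, 4.89 and 6.13 TPM in WT and at 6.85, 5.93 and 7.99 TPM in LRP5-KO. Its groups overlapped only between WT replicate 3 and LRP5-KO replicate 2, and the log2 fold change was 0.37 (SE 0.14, limma adjusted p = 0.171). Gnl3, or nucleostemin, had a log2 fold change of −0.02.

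The small subunit processome is the large particle that forms on the nascent precursor around the U3 snoRNA. Of 16 genes of this particle and of 40S maturation 11 were tested, 8 with a log2 fold change above 0 and 3 below 0, with a median of 0.11 and no call. Imp3, a U3-associated protein, had the smallest p of the 35 genes. The gene lies on chromosome 9 from 56785307 to 56786204 on the plus strand of NCBIM37, and its transcript of 898 bases fills this span without an intron. It was at 4.51, 4.30 and 4.66 TPM in WT and at 6.35, 7.05 and 5.97 TPM in LRP5-KO, or 4.49 ± 0.18 and 6.45 ± 0.55 TPM (SD, n = 3 each). The 3 LRP5-KO libraries were clearly above the 3 WT libraries, and the log2 fold change was 0.44 (SE 0.084, 95% interval 0.24 to 0.64), yet its adjusted p from limma was 0.0675. Over the alternatives of the processing this adjusted p ranged from 0.0218 to 0.281. Imp4, which joins Imp3 on the U3 snoRNA, had a log2 fold change of 0.05 (95% interval −0.26 to 0.35).

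Nol6, a scaffold of the processome (chromosome 4, 41061460 to 41071488, minus strand, NCBIM37), was at 1.30, 1.39 and 1.77 TPM in WT and at 1.89, 1.99 and 2.41 TPM in LRP5-KO. The groups did not overlap, although WT replicate 3 came close to LRP5-KO replicate 1, and the log2 fold change was 0.32 (SE 0.11, limma adjusted p = 0.155). Noc4l, which works with Nop14 in 40S assembly, was at 1.65, 1.66 and 2.07 TPM in WT and at 2.04, 2.11 and 2.15 TPM in LRP5-KO, again with WT replicate 3 inside the range of LRP5-KO. Emg1, a methyltransferase of the 18S rRNA, was at 22.9, 27.6 and 29.3 TPM in WT and at 28.0, 27.5 and 30.3 TPM in LRP5-KO, which overlapped. The log2 fold changes were 0.15 for Noc4l and 0.11 for Emg1.

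The other genes of this role differed less. Utp4, Wdr43 and Bysl had log2 fold changes of 0.14, 0.11 and 0.10, and Utp15 and Utp18 had −0.03 and −0.04. Ltv1, a late 40S assembly factor that leaves the particle in the cytoplasm, was at 9.41, 8.96 and 8.998 TPM in WT and at 8.29, 7.58 and 8.64 TPM in LRP5-KO. All LRP5-KO libraries were below all WT libraries, with a log2 fold change of −0.14 (SE 0.078, limma adjusted p = 0.300). The groups also did not overlap in Wdr43, where LRP5-KO was above WT, and in Utp18, where it was below.

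The 60S factors held the narrowest range, from −0.07 for Ebna1bp2 to 0.10 for Pes1 over 7 genes tested, with a median of 0.03 and 0 genes at an unadjusted p under 0.05. Pes1 forms a complex with Bop1 and Wdr12 that is needed for processing of the 60S rRNAs. It was at 5.38, 5.22 and 5.32 TPM in WT and at 5.58, 5.73 and 6.01 TPM in LRP5-KO. The groups did not overlap, and the log2 fold change was 0.10 (95% interval −0.07 to 0.27). Rrp1 was at 23.2, 26.0 and 30.4 TPM in WT and at 26.1, 29.0 and 27.9 TPM in LRP5-KO, within the range of WT, with a log2 fold change of 0.07. Bop1, Noc2l and Nip7 had log2 fold changes of 0.05, 0.03 and 0.03, and Nop2, an rRNA methyltransferase, had one of −0.05.

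The 10 genes below the level for testing were Polr1b, Gar1, Utp20, Wdr75, Rrp9, Nop14, Rrp12, Wdr12, Nop16 and Rrs1. Their means over the 6 libraries ran from 0.083 TPM for Utp20 to 0.92 TPM for Rrs1, and 6 of them were under 1 TPM in every library. The mean of LRP5-KO was above that of WT in all 10, beside 65.5% of the 5032 genes that lay below this level but no lower than Utp20. In Rrp9, Nop14 and Rrp12 every LRP5-KO library was above every WT library, or 3 of 10, beside 17.4% of the same 5032 genes. No test was made of these values, and TPM holds no counts from which their counting error could be known.

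Setting the libraries side by side showed that WT replicates 1 and 2 were the low libraries. The median deviation of the 35 genes from their means, on the log2(TPM + 1) scale, was −0.080, −0.057 and 0.022 in the WT libraries and 0.023, 0.032 and 0.014 in the LRP5-KO libraries, by replicate number. The same measure over all genes tested was −0.045, −0.043 and 0.023 in WT and −0.0098, 0.013 and 0.049 in LRP5-KO. The TPM of all 45 genes summed to 314 ± 16.1 in WT and 326 ± 10.8 in LRP5-KO (SD, n = 3 each), a difference smaller than the spread within WT.

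The ribosomal share of reads was set beside these values, since rRNA is the product of RNA polymerase I. It cannot be read as an rRNA level, because the preparation is not settled. The labels name an mRNA kit, which selects against rRNA, and the methods name a total RNA kit. Reads assigned to rRNA made up 1.20%, 1.30% and 3.30% in WT and 2.69%, 2.93% and 2.98% in LRP5-KO. WT replicate 3 had the highest share of all 6 libraries and the other WT libraries the lowest. The means were 1.93% ± 1.19 in WT and 2.87% ± 0.16 in LRP5-KO (SD, n = 3 each), and an exact permutation test of the difference of 0.933 percentage points gave p = 0.4, two-sided, where 3 libraries against 3 cannot give less than 0.1. Without WT replicate 3 the difference was 1.62 percentage points, and without another library it was at least 0.567. The row of Gm42418, a gene model that overlaps an rRNA repeat and was picked after its values were seen, had 7319, 7274 and 19351 TPM in WT and 14910, 16986 and 17213 TPM in LRP5-KO. Its order of the libraries was that of the ribosomal share, except that WT replicates 1 and 2 changed places. Intronic reads made up 8.46% ± 0.62 in WT and 10.9% ± 0.31 in LRP5-KO (SD, n = 3 each), without overlap (exact permutation test, p = 0.1, the smallest possible). The part of these library differences in the values of the ribosome biogenesis genes was not tested beyond the fits that follow.

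**Figure D3:**
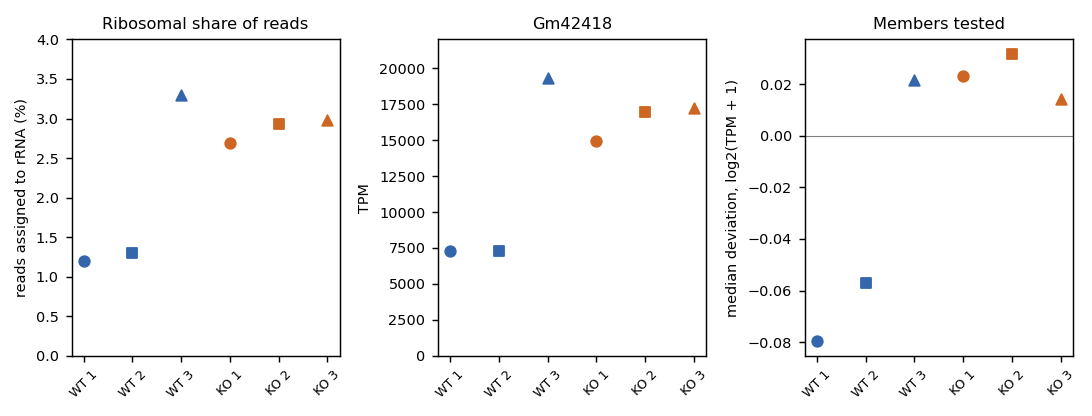
The panels show, for each of the 6 libraries, the percent of reads assigned to rRNA, the TPM of Gm42418 and the median deviation of the 35 tested genes on log2(TPM + 1). WT replicates 1 and 2 are lowest in all panels, and WT replicate 3 sits with the LRP5-KO libraries, at 3.30% of reads, 19351 TPM and 0.022.

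Fits that take WT replicate 3 and the ribosomal share into account moved single genes in opposite ways. Without WT replicate 3, limma called 4 of the 35 genes, Imp3 (0.46, adjusted p = 0.0218), Nol6 (0.40, adjusted p = 0.0428), Npm3 (0.48, adjusted p = 0.0415) and Polr1c (0.29, adjusted p = 0.0454), all higher in LRP5-KO. That fit called 1920 of the 9775 genes, or 19.6%, so 4 of 35 was a smaller share than the background. Against WT replicate 3 alone, the WT library whose ribosomal share was nearest to that of LRP5-KO, the median log2 fold change of the 35 genes was 0.0024, beside −0.0065 for all genes tested. With 1 WT library the spread came from the LRP5-KO libraries alone, so these values are a description and nothing is read from the number of calls. With the ribosomal share as a covariate the median was 0.024, beside 0.0059 for all genes tested, with 0 genes called. Imp3 had a log2 fold change of 0.39 against WT replicate 3 alone and of 0.41 with the covariate, with an adjusted p of 0.136 from limma in the fit with the covariate. Nol6 went to 0.16 and 0.20, and Polr1c to 0.09 and 0.13, in the same fits.

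The log2 fold changes of these genes followed GC content. Over the 34 tested genes with a value, Spearman's correlation of log2 fold change and GC content was 0.39, beside 0.49 over all 8769 tested genes with a value, as a description of genes that share libraries. Of 20 genes with at least 50% GC 17 were higher in LRP5-KO, with a median log2 fold change of 0.10, and of 14 genes under 50% GC 5 were higher, with a median of −0.04. Over all genes tested with a value, 3303 of 4381 and 1783 of 4388 were higher, and the medians were 0.11 and −0.05. When the trends with GC content and length were taken out of each library, limma called Npm1 (0.27, adjusted p = 0.0498), or 1 of 34 genes beside a background of 4.9%. The log2 fold change of Imp3 was 0.29 in that fit (adjusted p = 0.0712) and that of Ncl −0.22 (adjusted p = 0.0663 from limma).

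**Figure D4:**
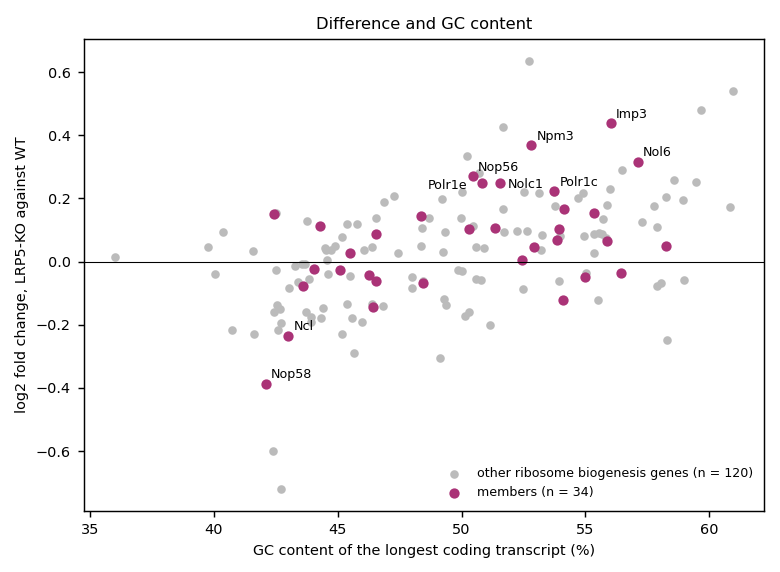
The horizontal axis gives the GC content of a gene's longest coding transcript in percent and the vertical axis its log2 fold change, LRP5-KO against WT, for 34 of the ribosome biogenesis genes described here and, in grey, 120 other genes of the pathway. Imp3, Nol6, Npm3 and Polr1c lie above 50% GC and above 0, and Ncl and Nop58 lie under 50% GC and below 0. Some genes go the other way, among them Npm1, under 50% GC and above 0, and Ubtf, above 50% GC and below 0.

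Other genes of the pathway were read from a list of 152, of which 121 were tested. Of these 69 were higher and 52 lower in LRP5-KO, with a median log2 fold change of 0.04, and 1 passed the test, beside 0.532% of all genes tested. Unadjusted p-values under 0.05 were found for 14 higher and 10 lower genes, or 19.8% beside the 23.5% of all genes. By role, 15 of 18 other RNA polymerase I genes were higher, with a median of 0.10. Of all genes tested 58.8% were higher. The 18 genes include Polr2e, Polr2f, Polr2h, Polr2k and Polr2l, all higher, and Tbp, lower, which are not specific to RNA polymerase I. Higher values were also found for 5 of 7 other snoRNP genes, 15 of 31 other 40S genes and 25 of 46 other 60S genes. The same held for 7 of 14 genes of the exosome that trims rRNA and 2 of 5 growth regulators.

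**Figure D5:**
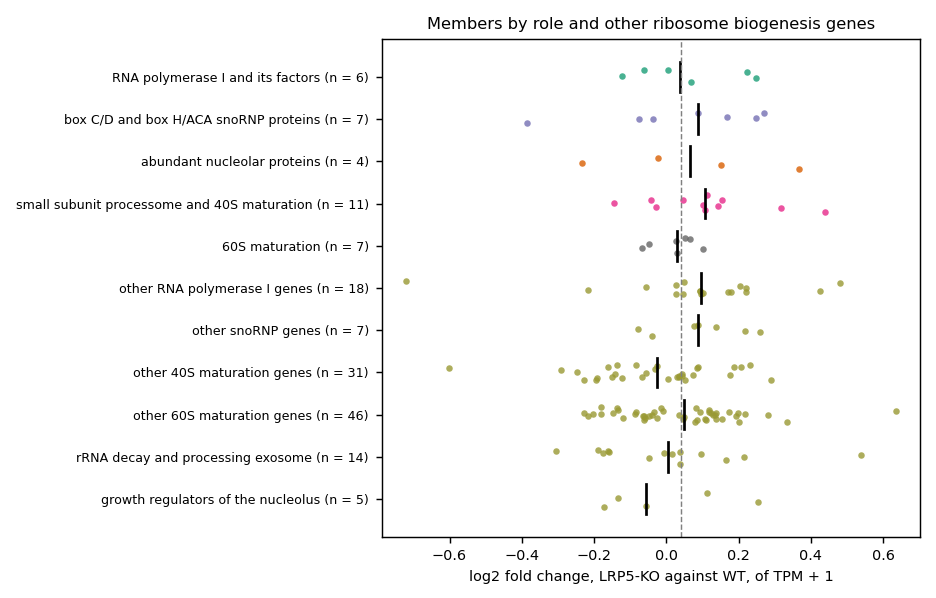
Each point is the log2 fold change, LRP5-KO against WT, of a tested gene, in rows by role for the 35 genes described here and, in the lower 6 rows, the 121 other genes of the pathway. Black bars are row medians, which lie between −0.06 and 0.11 around the dashed median of all genes at 0.04.

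The gene that passed was Rrp1b, a nucleolar paralog of Rrp1. It was at 2.49, 2.78 and 2.44 TPM in WT and at 4.36, 4.38 and 4.89 TPM in LRP5-KO. The LRP5-KO libraries were well above the WT libraries, and the log2 fold change was 0.64 (SE 0.083, limma adjusted p = 0.0357). The call was lost in limma without a filter on low values (adjusted p = 0.112), with the ribosomal share as a covariate (0.0796) and when any library other than WT replicate 3 was left out (0.0881 to 0.178), while the log2 fold change stayed between 0.54 and 0.69 at the pseudocount of 1. Rrp1 did not follow it. The difference of Rrp1b and Rrp1 on log2(TPM + 1) was −2.94 ± 0.22 in WT and −2.37 ± 0.10 in LRP5-KO (SD, n = 3 each). An exact permutation test gave p = 0.1, two-sided, the smallest possible. The pair was chosen after its values were seen, with Rrp1b picked for its own difference, so this p adds no support.

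The next genes by p did not pass. Exosc5, a subunit of the exosome, was at 4.46, 4.53 and 5.89 TPM in WT and at 7.76, 7.05 and 8.02 TPM in LRP5-KO, without overlap (log2 fold change 0.54, adjusted p = 0.0781 from limma). Baz2a, part of a complex that silences rRNA repeats, was at 36.1, 35.2 and 42.8 TPM in WT and at 52.3, 55.1 and 46.7 TPM in LRP5-KO, also without overlap (0.43, adjusted p = 0.0986 from limma). Pih1d1 acts in the assembly of snoRNPs. It was at 39.7, 38.4 and 40.9 TPM in WT and at 46.3, 49.2 and 47.3 TPM in LRP5-KO (0.26, adjusted p = 0.107 from limma). Tbp, the TATA-binding protein, which RNA polymerase I uses in its selectivity factor, was at 24.4, 19.5 and 17.7 TPM in WT and at 8.96, 12.5 and 15.2 TPM in LRP5-KO. It was the lowest of this list at −0.72 (adjusted p = 0.112 from limma), with LRP5-KO below WT in all libraries. Myc, which drives many genes of the pathway in growing cells, was at 0.64, 0.39 and 0.50 TPM in WT and at 0.31, 0.27 and 0.59 TPM in LRP5-KO, overlapping and below the level for testing.

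The promoters of the ribosome biogenesis genes were searched for the E-box CACGTG, the site that Myc and its relatives bind. The sequences came from RefSeq (GRCm38.p6) and covered 250 bases before to 50 bases after a start site, and 39 of the 45 genes matched, all but Rrs1, Nol6, Npm1, Fbl, Rrp12 and Bop1. The motif reads the same on both strands. It stood in the promoters of 9 of the 39 genes, or 23.1%, beside 11.9% of 7266 genes tested and 8.09% of all 27025 genes with a promoter sequence. A match is a description and not a bound site. The windows around the 10 matches are shown so that the motif can be seen in each gene that held it, with the motif in capitals, 5′ to 3′ on the strand of the gene.
Imp4 (chr1:34439696-34439725, plus strand): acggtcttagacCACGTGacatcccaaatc
Ltv1 (chr10:13193092-13193121, minus strand): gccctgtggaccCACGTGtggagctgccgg
Nop2 (chr6:125131811-125131840, plus strand): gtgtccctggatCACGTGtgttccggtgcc
Pes1 (chr11:3963965-3963994, plus strand): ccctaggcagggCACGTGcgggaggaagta
Rrn3, distal (chr16:13780472-13780501, plus strand): gagcgccaaggtCACGTGcacacgcctcta
Rrn3, proximal (chr16:13780639-13780668, plus strand): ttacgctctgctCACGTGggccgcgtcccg
Utp18 (chr11:93885769-93885798, minus strand): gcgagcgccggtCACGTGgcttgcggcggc
Utp20 (chr10:88826765-88826789, minus strand): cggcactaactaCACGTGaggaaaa
Utp4 (chr8:106893643-106893672, plus strand): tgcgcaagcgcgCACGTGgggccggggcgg
Wdr43 (chr17:71616220-71616249, plus strand): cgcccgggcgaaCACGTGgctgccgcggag

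Of the 10 matches 8 began within 60 bases of the start site, a count that was not made for other promoters. Rrn3 was the only gene with more than 1 match among the 39, at 215 and 48 bases before its start. The log2 fold changes of the tested genes with a match ran from −0.14 for Ltv1 to 0.14 for Utp4, and Imp3 and Polr1c had no match in this window.

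Markers of cell state moved beside these values. Of 10 genes of proliferating cells 9 had a higher mean in LRP5-KO, with a summed level of 276.5 to 281.8 TPM in WT and 302.9 to 314.7 TPM in LRP5-KO. Of 12 immature neutrophil genes 11 were higher, with sums of 72020 to 79340 TPM in WT and 74970 to 79090 TPM in LRP5-KO. Every LRP5-KO library was above every WT library in 7 of them, or 58.3% beside 17.4% of all genes tested, and below in 0. Of 12 mature neutrophil genes 4 were higher, with sums of 40310 to 44660 TPM and 39630 to 40940 TPM. Every LRP5-KO library was below every WT library in 5 of them, or 41.7% beside 12.3%, and above in 1. Abundant genes lead these sums, with means of 34840 TPM for Ngp, which was lower, and 20625 TPM for Retnlg. In bulk samples a change in the number of such cells and a change in RNA per cell cannot be told apart. No gene of the proliferating, immature and mature lists passed the test, and 58.8% of all genes tested were higher in LRP5-KO. The median GC content was 53.62% for the immature list, 46.07% for the mature list and 46.91% for the proliferating list. The part of GC content in the counts of these lists was not tested. Of 8 T and NK cell genes 4 were higher, with sums of 11.66 to 13.81 TPM in WT and 15.94 to 17.59 TPM in LRP5-KO. The gap came from Cd3d, without which the sums were 2.332 to 3.364 TPM and 2.539 to 3.071 TPM and overlapped. Of 6 eosinophil, basophil and mast cell genes 4 were higher, with sums of 10.12 to 12.59 TPM and 13.05 to 14.34 TPM. Here the gap came from Prg2, a granule protein of eosinophils (log2 fold change 0.91, adjusted p = 0.0341 from limma), without which the sums were 9.267 to 11.54 TPM and 10.14 to 11.21 TPM and overlapped. The sums of the proliferating cell genes stayed apart without Tubb5, their gene of largest difference. The mean was higher in LRP5-KO for 4 of 8 B cell genes, 5 of 7 monocyte genes, 5 of 8 erythroid genes and 3 of 5 progenitor genes. The sums of these lists overlapped between the groups. Among the erythroid genes Klf1 was under 0.1 TPM in every library, while Hbb-bs stood between 27.6 and 37.9 TPM. The part of these cell types in the values of the ribosome biogenesis genes was not tested.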

How the data were processed

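Bone marrow neutrophil RNA was profiled in 3 WT and 3 LRP5-KO libraries. The labels name a Percoll gradient and an mRNA kit, and the methods name sorted cells and a total RNA kit. The authors aligned reads to mm9, name DESeq2 for quantification and deposited TPM, with gene length taken out and each library scaled to a fixed total. The tool behind the TPM is not given in the sources used here. The authors also deposited a read summary holding counts of reads, shares in percent, a ratio for coverage bias at transcript ends, a coverage variation score and lengths in bases. Depth is lost in TPM, and errors rest on the spread between replicates.

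Genes averaging 1 TPM or more were tested with limma 3.58.1 (R 4.3.3) on log2(TPM + 1), which understates changes of low genes, with a mean-variance trend, no covariate and Benjamini-Hochberg adjustment over 9775 genes at a threshold of 0.05. A count model was not used. Single values per library were compared with exact permutation tests. Coordinates and GC content came from GENCODE M1 (NCBIM37), which covered 89.7% of the genes tested. Noc2l was not matched there. The 45 genes and all lists were chosen with earlier results of these data known. Values per library are given for the 12 genes of smallest p, the 6 of highest level, the RNA polymerase I genes and the gene of largest change in each role, and, among other pathway genes, for those called, the 5 of smallest p and Myc. Alternatives were pseudocount, filter, scaling, trend, libraries left out, a replicate block, the ribosomal share as covariate, WT replicate 3 alone and removal of GC and length trends.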

Additional observations from a re-analysis of the deposited data

How the results depend on the processing

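The number of the 35 genes called by limma was 0 under each alternative except without WT replicate 3 (4 genes) and with GC and length trends removed (1 gene), so that over left-out libraries it ran from 0 to 4. Their median log2 fold change was 0.023 with median-ratio scaling, 0.024 with the ribosomal share as covariate, 0.0024 against WT replicate 3 alone, 0.026 with trends removed and 0.037 to 0.087 with 1 library left out. Among the other pathway genes, the number called was 0 without a filter, at a mean of at least 5 TPM (where Rrp1b was not tested), with the replicate block, with the covariate and against WT replicate 3 alone (1 WT library, with the spread of LRP5-KO only, so that few calls follow from the design), 4 with trends removed, and 0 to 16 with 1 library left out, 16 being without WT replicate 3. Their median was −0.039 at 5 TPM, −0.00036 with median-ratio scaling, 0.061 on rescaling without abundant genes, 0.013 with trends removed and 0.012 to 0.045 with 1 library left out. The difference in ribosomal share was 0.567 to 1.62 percentage points. Of all genes, limma called 52, but 3 without a filter, 29 at 5 TPM, 98 on rescaling, 6 with the covariate, 6 against WT replicate 3 alone, 430 with trends removed, 1920 without WT replicate 3 and 2 to 18 without another library. The cause of these moves was not tested.

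Some genes changed sign, mostly those near 0 but also Nop56, Utp4 and Emg1. With median-ratio scaling these were Polr1a (−0.037) and Nip7 (−0.0067). With the covariate they were Polr1a (−0.022), Polr1d (−0.061), Gnl3 (0.061), Utp15 (0.014), Bop1 (−0.091) and Rrp1 (−0.077). Against WT replicate 3 alone they were Polr1a (−0.026), Polr1d (−0.12), Rrn3 (6.737e-05), Nop56 (−0.098), Gnl3 (0.11), Utp4 (−0.045), Utp15 (0.046), Emg1 (−0.036), Bop1 (−0.16) and Rrp1 (−0.13). With trends removed they were Polr1a (−0.12), Polr1d (−0.042), Dkc1 (0.027), Gnl3 (0.061), Utp15 (0.024), Imp4 (−0.025), Bop1 (−0.073) and Rrp1 (−0.043). With 1 library left out the range crossed 0 for Bop1 (−0.027 to 0.16), Dkc1 (−0.16 to 0.0079), Fbl (−0.14 to 0.025), Gnl3 (−0.087 to 0.027), Imp4 (−0.083 to 0.16), Nip7 (−0.011 to 0.052), Noc2l (−0.0081 to 0.055), Nop10 (−0.0027 to 0.13), Nop2 (−0.15 to 0.043), Polr1a (−0.032 to 0.031), Polr1d (−0.022 to 0.16), Rrp1 (−0.025 to 0.16) and Utp15 (−0.088 to 0.028).

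Deviations of same-numbered libraries correlated at 0.23, −0.0075 and 0.13, and those of differently numbered libraries at −0.21 to 0.083. These values do not settle whether replicate numbers pair the samples. With the replicate block 0 of the 35 genes were called, their median log2 fold change was 0.065, and 4 of all genes were called in place of 52, so Rrp1b was not called (adjusted p = 0.118 from limma).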
